A study of Mus musculus with 6 samples.

Results

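The Hes and Hey genes encode transcriptional repressors of the basic helix-loop-helix (bHLH) class. The 6 studied here are Hes1, Hes5, Hey1, Hey2, Heyl and Hes6. They were taken as every probe set of the array that is annotated to a single gene symbol among these names, which gave 10 probe sets for 6 of the 18193 genes named on the array. All 6 genes were bright enough to be among the 10916 genes tested. RNA came from pooled retinas of newborn mice lacking cyclin D1 (cyclin D1 -/-, called knockout, 3 pools) and of wildtype newborns (3 pools), with 1 Affymetrix expression array per pool. Their stated question was whether cyclin D1 raises or lowers transcription of genes to which it binds. The labels give neither strain nor the number of animals in a pool, nor whether pools shared litters, so p-values here cover only the variation among pools. The labels name no Cre or tissue-specific promoter, and no agent was given to either group.

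In the developing retina, Notch receptors on a cell are activated by Delta and Jagged ligands on its neighbours. The cleaved receptor enters the nucleus, joins the DNA-binding protein Rbpj and switches on Hes1, Hes5 and the Hey genes. These repress proneural bHLH genes, which keeps cells as progenitors and later favours Muller glia. Hes6 differs from its relatives: it is induced by proneural factors rather than by Notch, counteracts Hes1 and promotes neuronal differentiation. The comparison below therefore sets the Notch-driven members against Hes6.

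The promoters are printed because Notch-driven genes are known for Rbpj-type motifs close to their start. RefSeq (assembly GRCm38.p6) start sites were matched by symbol for 3 of the 6 genes, Hes5, Hey2 and Hes6, the last with 2 start sites. The 250 bases before each start are given 5′ to 3′ on the gene's strand. Hes5 lies at chr4:154960673-154960922 on the plus strand, Hey2 at chr10:30842784-30843033 on the minus strand, and Hes6 at chr1:91414039-91414288 (upstream start) and chr1:91413223-91413472 (downstream start), both on the minus strand. Capitals mark the Rbpj-type motif GTGGGAA or its reverse complement TTCCCAC, and the E-box CAGCTG, which proneural factors bind. Both strands were searched, and no match overlapped another. The Hes5 window and the downstream Hes6 window lie inside the RefSeq spans of their genes (chr4:154960626-154962372 and chr1:91411483-91414038). These starts are therefore internal to the annotated genes.
Hes5: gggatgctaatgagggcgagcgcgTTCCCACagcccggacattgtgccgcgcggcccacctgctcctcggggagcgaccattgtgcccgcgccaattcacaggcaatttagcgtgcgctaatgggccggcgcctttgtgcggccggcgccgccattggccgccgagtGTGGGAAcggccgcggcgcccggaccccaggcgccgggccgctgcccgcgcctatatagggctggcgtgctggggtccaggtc
Hey2: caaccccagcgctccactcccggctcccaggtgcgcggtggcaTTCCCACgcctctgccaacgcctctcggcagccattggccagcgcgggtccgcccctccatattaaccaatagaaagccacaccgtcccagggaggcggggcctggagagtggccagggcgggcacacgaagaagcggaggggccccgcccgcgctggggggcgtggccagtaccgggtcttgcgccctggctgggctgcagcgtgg
Hes6 upstream start: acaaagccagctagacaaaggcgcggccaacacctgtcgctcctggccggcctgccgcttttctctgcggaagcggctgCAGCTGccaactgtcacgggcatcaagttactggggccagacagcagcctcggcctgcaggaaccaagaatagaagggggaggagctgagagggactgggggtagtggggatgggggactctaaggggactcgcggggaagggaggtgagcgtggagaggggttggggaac
Hes6 downstream start: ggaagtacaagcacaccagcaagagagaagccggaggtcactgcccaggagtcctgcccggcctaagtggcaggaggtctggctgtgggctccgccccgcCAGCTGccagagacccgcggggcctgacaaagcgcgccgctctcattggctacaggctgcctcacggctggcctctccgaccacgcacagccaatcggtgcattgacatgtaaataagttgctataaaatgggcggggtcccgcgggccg
The Hes5 window holds the Rbpj-type motif 2 times, once on each strand. Of 32851 promoter windows of this length, 0.161% hold it at least 2 times and 5.42% at least 1 time, on either strand. Hey2 holds it 1 time before the start. With 50 bases after the start included, Hes5 and Hey2 each hold it 2 times and both Hes6 windows 0 times, and 6.38% of windows hold it at least 1 time and 0.256% at least 2 times. Neither Hes6 window before the start holds it, and each holds CAGCTG 1 time, as do 4271 of the 32851 windows at least 1 time. The N-box CACNAG, a site that Hes proteins bind, occurs 1 time in the downstream Hes6 window (36.7% of windows hold it), and the E-box CACGTG in none of the 4 (6.02% of windows hold it). These are matches of letters and were not measured as binding.

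Signals are given as log2 of the quantile-normalised intensity plus 16, differences are knockout minus wildtype, and errors are SD with n = 3 pools. A fold on this scale understates the change of dim genes. Levels of different probe sets are not set against each other. The targeted gene checks the labels: Ccnd1, which encodes cyclin D1, was 8.86 ± 0.055 in knockout and 12.45 ± 0.10 in wildtype pools (log2 difference -3.59, SE 0.076, limma adjusted p = 5.78e-07). Arrays of pools 1 and 2 were more alike than any other pair (SD of their log2 difference 0.21 in knockout and 0.22 in wildtype, against 0.28 to 0.52). The labels do not say whether pools 1 and 2 share tissue or RNA, in which case n = 3 would overstate the replication. With these pools averaged, 43 genes were called in place of 509. Arrays were ranked by the mean log2 signal of bacterial BioB and BioC hybridisation controls and split into 3 brighter and 3 dimmer. The brighter were knockout pools 1 and 2 and wildtype pool 3 (9.82, 9.97 and 10.15). The dimmer were knockout pool 3 and wildtype pools 1 and 2 (9.53, 9.66 and 9.66). The step between the sets, from 9.66 to 9.82, was smaller than the range within the brighter set. The split is thus a cut by rank and does not show 2 distinct batches. Each set holds both genotypes, but within a set one genotype has a single array. Transcripts of lens were present in every pool. The summed signal of 10 lens genes was 17733 to 43779 units in knockout and 2308 to 6148 in wildtype pools, beside 8651 to 9200 and 5839 to 7443 units for 9 photoreceptor genes.

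Hes5 was the one Hes or Hey gene that passed the test. It was lower in all 3 knockout pools, by 1.85-fold, while Hes1, Hey1, Hey2, Heyl and Hes6 did not pass the test in either direction. Thus 1 of 6 genes was lower and none was higher at the submitters' false discovery rate of 0.10, against 2.63% of all tested genes lower, 2.03% higher and 4.66% in either direction. By probe set, 1 of 10 was called lower and none higher, against 2.02% of 20967 probe sets lower, 1.51% higher and 3.53% in either direction. At an unadjusted p under 0.05 the counts were 1 gene, against 13.5% of all tested genes, and 2 probe sets, both of Hes5, against 11.4% of all tested probe sets. The median log2 difference of the 6 genes was -0.10, beside 0.02 over all tested genes.

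Hes5, a Notch target that maintains retinal progenitors and later acts in Muller glia formation, is read by 2 probe sets. The brighter one (1456010_x_at) had deposited intensities of 802, 1037 and 907 units in knockout pools 1, 2 and 3, against 1513, 1632 and 1394 in wildtype pools 1, 2 and 3. After normalisation these were 9.62, 9.80 and 9.87 in knockout pools, against 10.63, 10.77 and 10.54 in wildtype pools. Every knockout pool lay below every wildtype pool, as for 9.48% of all tested genes, with a gap of 0.67 between the groups. The mean was 9.76 ± 0.13 in knockout and 10.65 ± 0.12 in wildtype pools, so Hes5 fell by 0.88 on the log2 scale (SE 0.10, 95% confidence interval -1.10 to -0.66, limma adjusted p = 0.00373). The fall was -0.83 in each set of arrays, with brighter and with dimmer controls. The call held in all 20 alternative settings, with limma adjusted p from 0.00137 to 0.0986. The largest of these came from averaging pools 1 and 2 of each genotype, which leaves 2 samples per genotype.

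The other Hes5 probe set (1423146_at) pointed the same way with more spread. Its levels were 8.48, 8.50 and 8.70 in knockout pools, against 9.50, 9.58 and 8.81 in wildtype pools. The groups did not overlap, as for 17.6% of all tested probe sets and for 3 of the 10 here, but wildtype pool 3 lay 0.11 above the highest knockout pool and far below the other wildtype pools. The log2 difference was -0.74 (SE 0.19, 95% confidence interval -1.18 to -0.30), and the limma adjusted p over all probe sets was 0.115, short of the threshold. Without wildtype pool 3 it was -0.98 with a limma adjusted p of 0.00113, the lowest of 18 alternatives. Over the 18 the difference ran from -0.98 to -0.56 with limma adjusted p up to 0.884, and the probe set was called in 3. Within the sets of arrays the difference was -0.32 and -0.84, brighter controls first. In a bulk sample such as this, fewer cells that express a gene and less RNA per cell cannot be told apart. Wildtype pool 3 had the lowest lens sum of all pools, and its part in these values was not tested.

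**Figure D1:**
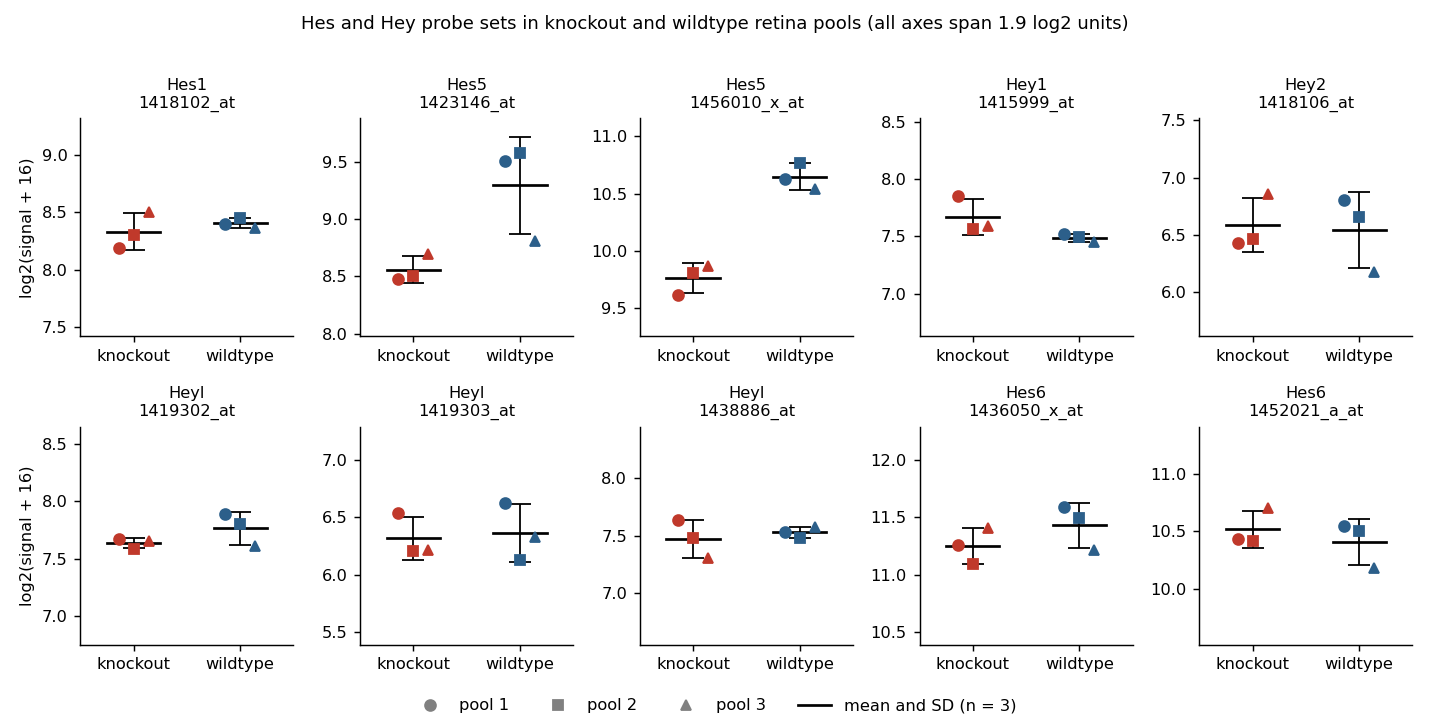
Log2(signal + 16) of each of the 10 Hes and Hey probe sets in the 3 knockout pools (red, left) and the 3 wildtype pools (blue, right), with the mean and SD of each group as black bars. Every vertical axis spans the same range, and the groups are 0.67 apart for Hes5 1456010_x_at. For Hes5 1423146_at wildtype pool 3 lies 0.11 above the highest knockout pool.

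Hes1, the other main Notch target of retinal progenitors, showed no detectable change. Its single probe set read 8.19, 8.30 and 8.51 in knockout pools, against 8.40, 8.45 and 8.37 in wildtype pools. The wildtype values lay inside the range of the knockout values. The log2 difference was -0.076 (SE 0.11, limma adjusted p = 0.908), with a 95% confidence interval of -0.34 to 0.18, which leaves out a fall of the size seen for Hes5. In the deposited values without scaling between arrays the difference was 0.069, where the median of all tested genes was 0.13.

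Hey1, Hey2 and Heyl, relatives of Hes genes that also act in blood vessel development, did not pass the test. Hey1 was 7.85, 7.56 and 7.59 in knockout pools, against 7.52, 7.49 and 7.45 in wildtype pools. The groups did not overlap, as for 20.0% of all tested genes, but the gap was 0.042 and knockout pool 1 made most of the difference of 0.18 (SE 0.13, 95% confidence interval -0.11 to 0.47, limma adjusted p = 0.678). Without knockout pool 1 it was 0.088. Hey2, which favours glial fate in retinal explants, was 6.43, 6.47 and 6.86 in knockout pools, against 6.81, 6.66 and 6.18 in wildtype pools. Its groups overlapped throughout, and the difference of 0.040 had the widest interval of the 6 genes (-0.44 to 0.52, limma adjusted p = 0.983). It turned to -0.10 without knockout pool 3 and to -0.15 without wildtype pool 3.

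Heyl was read by 3 probe sets. The brightest (1419302_at) gave 7.67, 7.58 and 7.65 in knockout pools, against 7.89, 7.80 and 7.61 in wildtype pools. Wildtype pool 3 fell among the knockout pools, and the difference was -0.13 (SE 0.12, 95% confidence interval -0.41 to 0.15, limma adjusted p = 0.805). The other probe sets differed by -0.043 (1419303_at) and -0.056 (1438886_at), with overlapping groups. Markers of the vessel cells in which Heyl and Hey genes are also expressed were mostly dim. Of 10 endothelial genes, 4 passed the filter on dim genes and none was called. The largest difference of the 4 was that of Cldn5 (-0.79, limma adjusted p = 0.133), called in 1 of 19 alternatives. The summed signal of the 10 was 1500 to 1534 units in knockout and 1559 to 1597 in wildtype pools, and Kdr, which neural progenitors of the retina also express, is the brightest of them. Of 8 mural cell genes, 2 passed the filter and none was called, with a sum of 420 to 467 units in knockout and 269 to 349 in wildtype pools. The 2 were Rgs5 (0.71, limma adjusted p = 0.101), called in 5 of 19 alternatives, and Acta2 (0.13). Myl9, left out as dim, differed by 1.03 and passed with no filter (limma adjusted p = 0.0330). The part of these vessel cells in the Hey values was not tested.

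Hes6 was high on both of its probe sets and showed no call. The representative probe set (1436050_x_at) was 11.26, 11.09 and 11.41 in knockout pools, against 11.59, 11.49 and 11.21 in wildtype pools. The second probe set (1452021_a_at) was 10.43, 10.41 and 10.70 in knockout pools, against 10.54, 10.50 and 10.18 in wildtype pools. Groups overlapped on both, and the probe sets differed in sign. The first gave -0.18 (SE 0.12, 95% confidence interval -0.45 to 0.09, limma adjusted p = 0.633 over genes) and the second 0.11 (SE 0.12, 95% confidence interval -0.17 to 0.38, limma adjusted p = 0.889 over probe sets). Without wildtype pool 3 the first became -0.29 and was called lower (limma adjusted p = 0.0945), while the second became -0.0069, and in that fit 9.93% of all tested genes were lower. The suffix x of the representative Hes5 and Hes6 probe sets marks, in Affymetrix naming, probes that may also match other transcripts.

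**Figure D2:**
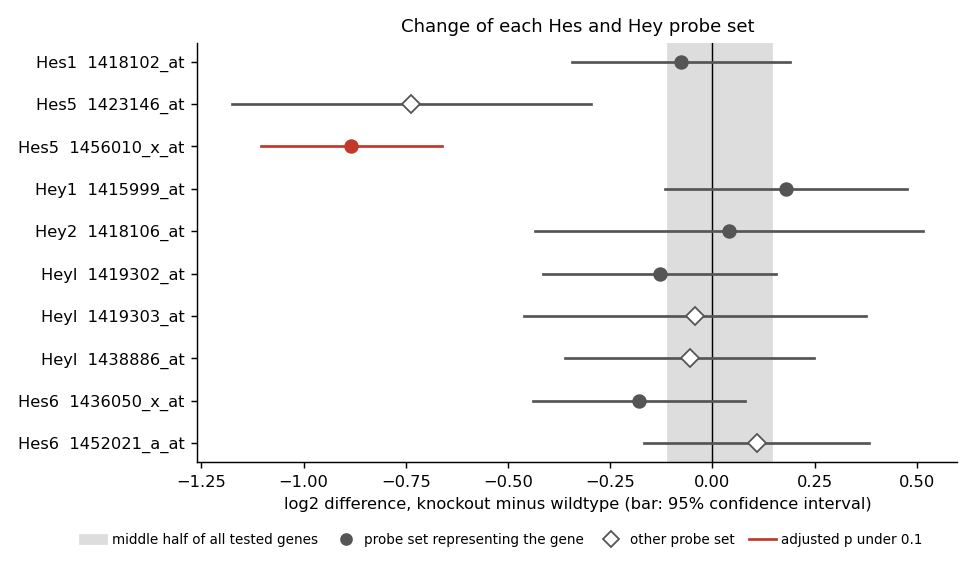
Log2 difference, knockout minus wildtype, of each Hes and Hey probe set (symbols) with its 95% confidence interval from limma (bars); the grey band holds all tested genes from the lower to the upper quartile (-0.11 to 0.15). Only the Hes5 probe set 1456010_x_at, in red, is past the adjusted threshold of 0.1, and the interval of the other Hes5 probe set also lies below 0.

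Some members were also separated by the brightness of the hybridisation controls. Hes1, Hey2 and both Hes6 probe sets were lower on all 3 arrays with brighter controls than on all 3 with dimmer controls. Hey2 was 6.18 to 6.47 with brighter controls and 6.66 to 6.86 with dimmer ones. The representative Hes6 probe set was 11.09 to 11.26 with brighter controls and 11.41 to 11.59 with dimmer ones. By gene, 3 of 6 members were separated by set, against 32.5% of all tested genes, and by probe set 4 of 10, against 31.2%. The sets were first noticed in these same arrays. Hes5 overlapped between the sets on both probe sets.

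Set against Hes6 in the same pool, Hes5 was the only 1 of 5 Notch-driven members whose pools did not overlap between genotypes. On their own values, 20.0% of all tested genes did not overlap. The share for differences from Hes6 over all genes was not computed. The log2 signal of Hes5 minus that of Hes6, relative to the wildtype mean, was -0.86, -0.50 and -0.75 in knockout pools, against -0.17, 0.063 and 0.11 in wildtype pools. The change of Hes5 was thus 0.70 below that of Hes6 on the log2 scale (difference of changes -0.70, exact two-sided permutation p = 0.1, the smallest that 3 pools against 3 can give, and 0.333 after adjustment over 5 comparisons). It was -0.79 and -0.70 within the sets of arrays, brighter controls first. Hes1 relative to Hes6 was -0.050, 0.23 and 0.13 in knockout pools, against -0.16, -0.014 and 0.18 in wildtype pools, a difference of 0.10 (exact permutation p = 0.5). The differences of Hey1, Hey2 and Heyl from Hes6 were 0.36, 0.22 and 0.050, with overlapping pools (exact permutation p = 0.2, 0.2 and 0.6). No design of 3 against 3 can reach 0.05 in this test. Hes6 stands here for its representative probe set (1436050_x_at), which changed by -0.18. The other Hes6 probe set (1452021_a_at) changed by 0.11, and differences from it alone were not computed. The sign and size of the smaller differences may therefore depend on the probe set.

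**Figure D3:**
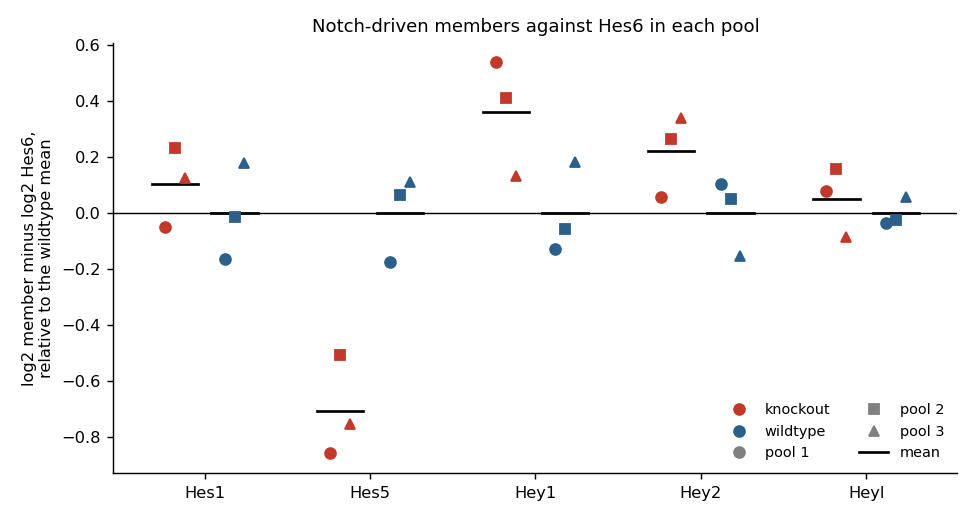
Log2 signal of each Notch-driven member minus log2 signal of Hes6 in the same pool, relative to the wildtype mean, for knockout (red, left) and wildtype pools (blue, right), with group means as black bars. The 3 knockout pools of Hes5 lie between -0.86 and -0.50, below all wildtype pools, and the pools of Hes1, Hey1, Hey2 and Heyl overlap.

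Upstream of these genes, Notch1 fell and the rest of the pathway showed no call. Of 39 Notch pathway genes listed, 33 were tested, of which 1 was lower, against 2.63% of all tested genes, and none was higher. An unadjusted limma p under 0.05 was found for 6 of the 33, against 13.5% of all tested genes. Their differences had a median of -0.0048, beside 0.02 over all tested genes. Notch1, the main Notch receptor of retinal progenitors, was 8.99, 9.15 and 9.29 in knockout pools, against 9.93, 10.07 and 9.90 in wildtype pools (log2 difference -0.83, SE 0.10, limma adjusted p = 0.00608). All knockout pools lay below all wildtype pools. The call ended with pools 1 and 2 averaged (adjusted p = 0.160). Notch2 and Notch3 differed by 0.13 and 0.20 and were not called.

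Among the ligands, Dll1, expressed by newborn neurons, differed by -0.26 (limma adjusted p = 0.365) and Dll3 by 0.14 (0.615 as the adjusted p). Dll1 had knockout pools at 8.41, 8.43 and 8.53 and wildtype pools at 8.62, 8.62 and 8.89, without overlap. Rbpj, the DNA-binding partner of all Notch receptors, differed by -0.029 and by 0.12 in the deposited values. No other listed Notch target was called. Nrarp, a feedback inhibitor, differed by -0.17 (adjusted p = 0.597) and, in the deposited values, by 0.04. Dtx1 and Dtx4, of the Deltex family, were higher in every knockout pool, by 0.28 and 0.29 (adjusted p = 0.278 and 0.179), without a call. Some genes of the Groucho/TLE family encode corepressors that Hes proteins recruit through their C-terminal end. Of 5 tested genes of this family none was called, and the nearest was Tle5 (0.32, adjusted p = 0.113). The pathway list had 1 gene lower and 2 higher in the deposited values and with the array set as a block. It had 4 lower and 2 higher without wildtype pool 3, and none called with averaged pools. Of all 10916 tested genes, 1084 were lower and 866 higher without wildtype pool 3. The counts were 176 and 416 in the deposited values, and 433 and 597 with the array set as a block.

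**Figure D4:**
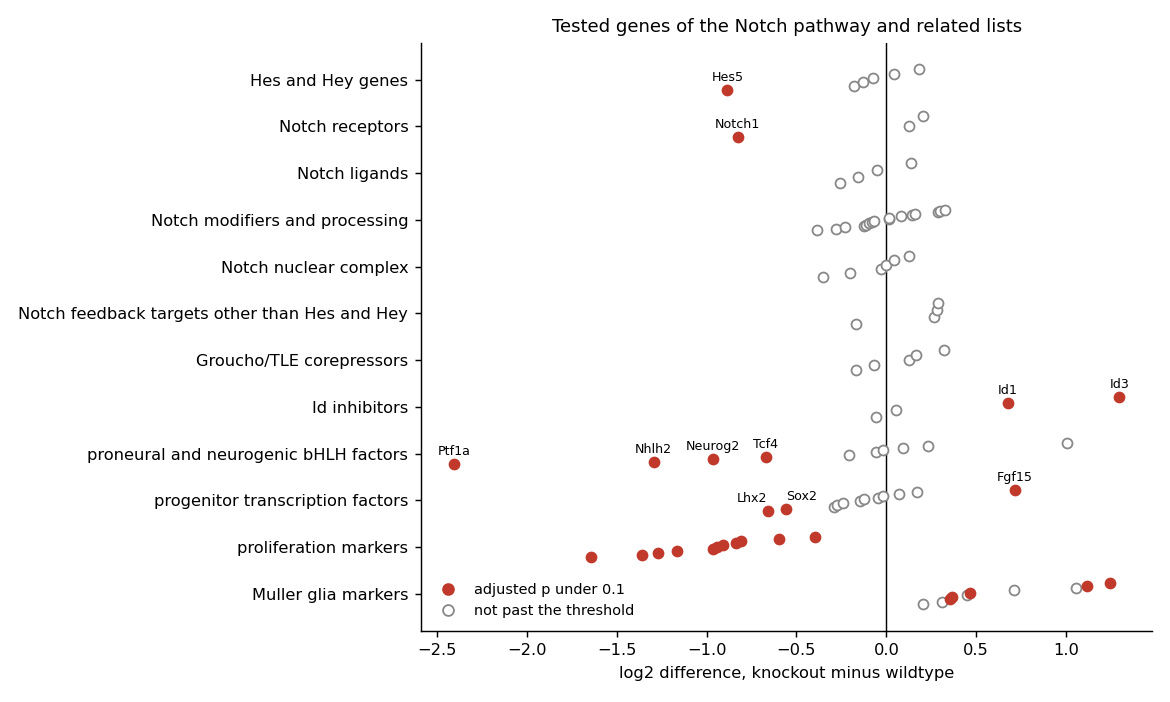
Log2 difference, knockout minus wildtype, of every tested gene in the Hes and Hey group and in 11 related lists (rows), with genes past the adjusted threshold of 0.1 in red and the others as open grey circles. In the Hes and Hey row only Hes5 is red and in the 5 Notch rows only Notch1, while all 11 proliferation genes are red and below 0.

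Genes downstream of, or antagonistic to, the Hes proteins moved in both directions. Of 10 tested proneural and neurogenic bHLH genes, 4 fell and none rose, against 2.63% of all tested genes lower and 2.03% higher. With no filter on dim genes 5 of 13 were called, all lower, Olig2 (-0.99) among them. The median over the 10 was -0.13. Calls numbered 2 with arrays centred on medians or the lowest 60% left out and 1 with averaged pools, all lower. There were 3 lower and 1 higher with the replicate block, 4 lower and 1 higher in the deposited values and with the array set as a block, 5 lower and 1 higher with the probe set of largest difference, and 4 lower and 2 higher without wildtype pool 3. The 4 were Ptf1a (-2.40), Nhlh2 (-1.30), Neurog2 (-0.96) and Tcf4 (-0.67), with limma adjusted p from 0.00108 to 0.0323. Neurog2, a proneural factor that Hes1 represses, was 7.36 ± 0.24 in knockout and 8.32 ± 0.28 in wildtype pools, without overlap. Its call ended in 7 of 20 alternatives, among them the replicate number as a block (adjusted p = 0.155) and leaving out knockout pool 1 or 2 or wildtype pool 1 or 2. Atoh7, the proneural factor of ganglion cells, differed by 1.00 without a call (adjusted p = 0.126), and by 1.83 and 0.29 within the sets. Of the 4 Id genes, whose products block bHLH factors, Id3 rose 2.45-fold (adjusted p = 0.0169) and Id1 rose 1.60-fold (adjusted p = 0.0689), while Id2 and Id4 differed by 0.056 and -0.055. Id1 lost its call in 10 of 20 alternatives, among them leaving out any 1 knockout pool or wildtype pool 2, and Id3 only with averaged pools (adjusted p = 0.176).

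Lists for progenitors and Muller glia, the cells known to express Hes5, are given next. Their counts stand beside 2.63% of all tested genes lower and 2.03% higher. All 11 tested proliferation genes fell, by a median difference of -0.94, and 6 were called with averaged pools. Their summed signal was 5957 to 6418 units in knockout and 11777 to 12121 in wildtype pools. Of 12 progenitor genes, most of them transcription factors, 2 transcription factors fell (Lhx2 by 0.66 and Sox2 by 0.56 on the log2 scale). The 1 gene that rose was Fgf15, by 0.71, which encodes a growth factor of progenitors. The median over the 12 was -0.14. The list had no call with arrays centred on their medians, with the submitters' error model or with averaged pools. Fgf15 lost its call in 10 of 20 alternatives, among them leaving out knockout pool 1 or 2 or wildtype pool 1 or 2. Without wildtype pool 3 the list had 4 genes lower and 1 higher. Its summed signal was 5366 to 5613 units in knockout and 6041 to 6360 in wildtype pools. Of 10 Muller glia genes, 5 rose (Rdh10 by 1.25, Apoe by 1.11, Glul by 0.47, Vim by 0.36 and Dkk3 by 0.35 on the log2 scale) and none fell. The median over the 10 was 0.46, and their sum was 9027 to 9355 units in knockout and 5998 to 6408 in wildtype pools. Calls numbered 2 without knockout pool 1 or 2 or wildtype pool 1, 1 with averaged pools and 9 with the array set as a block. Of 5 Cdk inhibitors, 2 fell, Cdkn1b by 0.53 and Cdkn2c by 0.58 on the log2 scale, and Cdkn1b is a gene that Hes1 represses in other tissues. Neither was called in the deposited values, with arrays centred on medians, with averaged pools or with the submitters' error model, and 1 was called without knockout pool 2 or wildtype pool 1. Among markers of other cells, 5 of 9 ganglion cell, 3 of 9 photoreceptor, 7 of 10 lens and 2 of 4 ciliary margin genes rose, and none of these fell. Photoreceptor calls numbered 1 without knockout pool 1 or 2 or wildtype pool 2, and 0 to 6 over all alternatives. Lens calls numbered 4 without any 1 knockout pool, and 0 to 10 over all alternatives. With averaged pools 1 ganglion cell and 1 ciliary margin gene was called. Of 7 amacrine and horizontal cell genes 3 fell, with 1 call left with averaged pools, and none rose. Of 5 pigment epithelium genes 1 was called lower. That count was 0 without knockout pool 1 or 2 or wildtype pool 1 or 2, 3 without wildtype pool 3, and 0 to 3 over all alternatives. No astrocyte (3 tested), microglia (2 tested) or other Hes-related gene (1 tested) was called, and no red blood cell gene was bright enough to be tested. The part of these cell populations in the fall of Hes5 was not tested.

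The genes nearest to each member were found by the root mean square difference between profiles over the 6 pools, each centred on its own mean. The nearest of 10915 genes to Hes5 was Notch1, at a distance of 0.041 log2 units, followed by Meis2 and Hirip3, each at 0.046, beside a median distance of 0.49 over all genes. Meis2, a homeobox gene of retinal progenitors and amacrine cells, differed by -0.85 and Hirip3 by -0.92. Such a profile is set mostly by the difference between genotypes and is a description of 6 arrays. Those nearest to Hes6 were Umps, Nrbf2 and Champ1, at 0.023 to 0.030, and none of the 3 was called. Hes1 was nearest to Mob4, Canx and Wbp11, Hey1 to Ccn1, Arhgap5 and Mat2b, Hey2 to Appbp2, Dip2a and Tctex1d2, and Heyl to Uvrag, Tiparp and Cops8.

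**Figure D5:**
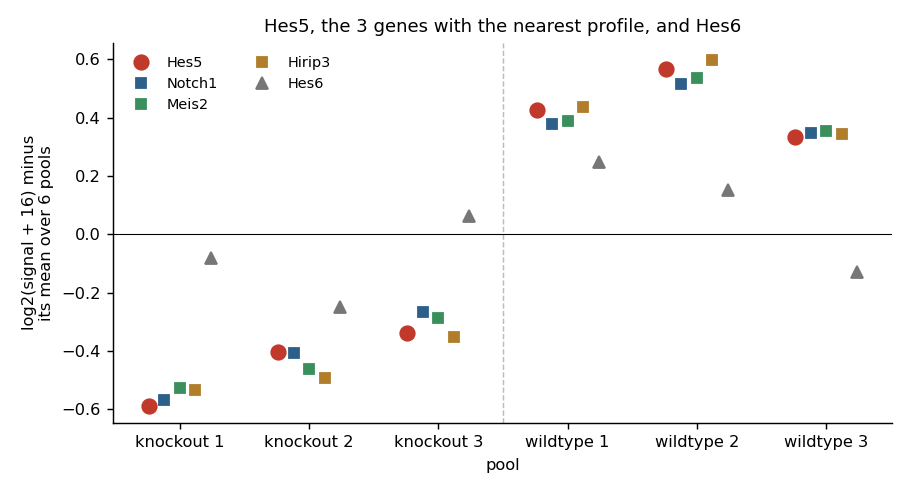
Log2(signal + 16) of Hes5, of the 3 genes with the nearest profile (Notch1, Meis2, Hirip3) and of Hes6 in each pool, minus the mean of that gene over the 6 pools. Hes5 and its 3 nearest genes are below 0 in all knockout pools and above 0 in all wildtype pools, while Hes6 is above 0 in knockout pool 3 and below 0 in wildtype pool 3.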

How the data were processed

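The deposited table holds 1 linear intensity value per probe set and array. No source used here names the program that summarised the probes or any scaling by the authors (not given in the sources used here). Per the labels' protocols, total RNA of pooled retinas was column-purified and labelled with biotin in 1 amplification round. Per the labels, the submitters tested with the NIA Array Analysis tool at a false discovery rate of 0.1, which is the threshold used here.

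Of 45101 probe sets, 64 controls were left out, and 34945 of the rest had 1 gene symbol (932 had several, 9160 none). Symbols were updated through Entrez identifiers with RefSeq names of GRCm38.p6 for 34741. Array medians of log2 intensity differed by 0.31, so values were quantile normalised, floored at 1 and taken to log2(value + 16). Each gene was represented by its probe set with the highest mean, and the lowest 40% (7277 genes) were not tested. Genes, and separately probe sets, went into linear models of limma (version 3.58.1, R version 4.3.3; lmFit, eBayes with an intensity trend, two-sided, Benjamini-Hochberg over all tested). The arrays' number limits the precision. Members against Hes6 were compared by exact permutation over pools.

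Beside the 6 members, the rule for naming genes takes Ccnd1, called genes of 24 gene lists (196 symbols, of which 13 had no named probe set and 146 were tested) and the 3 nearest profiles of each member. Genes named with values but without a call were chosen after their values were seen. The members and lists were chosen with earlier results of these data known.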

Additional observations from a re-analysis of the deposited data

How the results depend on the processing

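Over the alternatives that apply to it, Hes5 kept its direction and its call (log2 difference -0.94 to -0.72 over 20 settings). The count of called Hes and Hey genes was 1 in 19 of 20 settings and 2 without wildtype pool 3, where Hes6 joined, so that it was 1 to 2 when pools were left out. The count of called probe sets was 2 with the lowest 60% left out and with array set as a blocking term, and 1 to 2 when pools were left out. The Hes5 minus Hes6 difference ran from -0.80 to -0.62. No setting took the Hes6 probe set 1452021_a_at alone.

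The count over all genes was 509 (287 lower, 222 higher). It became 239 with arrays centred on medians, 43 with pools 1 and 2 averaged, 269 with the replicate block, 1030 with array set as a blocking term, 208 with the submitters' error model and 322 at a threshold of 0.05. It was 174 to 1950 when single pools were left out, the extremes being without knockout pool 1 and without wildtype pool 3. Without knockout pools 2 and 3 it was 180 and 336, and without wildtype pools 1 and 2 it was 250 and 271. In the deposited values, 176 genes were lower and 416 higher, where all genes had a median of 0.13, against 0.02 after normalisation.

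Signs turned for small differences that were not called. With the mean of all probe sets, Hes1 minus Hes6 and Heyl minus Hes6 were both -0.041, and leaving out single pools gave -0.0036 to 0.12 for Heyl minus Hes6. In the deposited values Hes1 was 0.069, Heyl 0.020 (1419303_at) and 0.045 (1438886_at), Nrarp 0.045 and Rbpj 0.12, all below the median of all genes there. Rbpj was 0.036 with arrays centred on medians. Leaving out single pools gave -0.15 to 0.17 for Hey2, -0.16 to 0.090 and -0.14 to 0.029 for the same 2 Heyl probe sets, -0.0069 to 0.18 for Hes6 (1452021_a_at) and -0.089 to 0.028 for Rbpj. The causes were not tested.

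Samples with the same replicate number deviated together in 1 of 3 pairs (correlations of deviations 0.17, -0.35 and -0.48). The labels do not say whether the numbers pair the pools. With 3 arrays per genotype, correlations of deviations from group means cannot settle it. With the replicate block the Hes5 difference was -0.88 (limma adjusted p = 0.0239), Hes5 minus Hes6 was -0.70, and 1 member was called.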
